A study of Mus musculus with 12 samples.

Results

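Respiratory chain assembly factors are nuclear-encoded proteins that build the complexes of oxidative phosphorylation without remaining in them, and 44 of their genes were followed here in mammary tumors and benign mammary tissue. The genes were taken by symbol from a fixed list and grouped by the complex they serve, with 13 for Complex I, 3 for Complex II, 6 for Complex III, 17 for Complex IV, 3 for Complex V and 2 for several complexes. All 44 were among the 16411 genes of the deposited table and all 44 passed the filter on low counts that left 13191 genes for testing.

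RNA was sequenced from 6 tumors and 6 benign samples of female MMTV-Neu-NDL-YD5 transgenic mice, an FVB line in which the mouse mammary tumor virus promoter drives an activated HER2 (Neu) receptor in the mammary epithelium. Mice of both groups carried this transgene, none was treated, and benign tissue was mammary tissue free of visible tumor, collected as far from a tumor as possible. Tumors and benign samples came from different mice, and the labels give no age. The samples are whole tissue, so fewer cells of a type and less RNA per cell cannot be told apart.

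Each respiratory complex is put together stepwise in the inner mitochondrial membrane, and every step has its own helpers. Some insert or stabilise the subunits made inside the mitochondrion, some load heme, copper, flavin or iron-sulfur clusters, and others hold partly built modules until the next one arrives. Inherited loss of many of them causes mitochondrial disease in humans with a deficiency of a single complex.

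Total counts per sample ranged from 5240853 to 8170687 in benign tissue and from 6111393 to 8588567 in tumors, and 43 of the 44 genes had at least 10 counts in every sample. Levels are given as CPM, counts scaled to library size with the TMM method, and 3 counts corresponded to 0.416 CPM. Not all benign samples had the same makeup. The 15 skeletal muscle markers listed summed to 38713 to 99270 CPM in benign samples 3, 4 and 6 but to 24.3 to 402 CPM in benign samples 1, 2 and 5 and 6.48 to 168 CPM in tumors. The 6 brown fat markers listed summed to 3154 CPM in benign sample 4 and 903 CPM in benign sample 6, against 41.1 to 232 CPM in the other benign samples and 12.3 to 36.4 CPM in tumors. Cox7a1 and Cox8b of this list are also among the Complex IV subunits compared below. They had 177 and 523 CPM in benign sample 4 and 88.8 and 269 CPM in benign sample 6. In tumors they had 5.66 to 20.4 CPM and 0.550 to 8.09 CPM. The 8 lymphocyte markers listed summed to 885 CPM in benign sample 1 and to 0.26 to 11.2 CPM in all other samples. White adipocyte markers, 8 in all, summed to 7981 to 21015 CPM in benign tissue and to 12.2 to 119 CPM in tumors, while 6 luminal epithelial markers summed to 882 to 2427 CPM and 2532 to 4123 CPM, 5 of them being higher in tumors and Krt19 lower (log2 fold change -4.74 by edgeR). All 5 fibroblast markers were lower in tumors, at 323 to 701 CPM in sum against 4579 to 6937 CPM in benign samples 1, 2 and 5 and 2797 to 3338 CPM in benign samples 3, 4 and 6. All 5 endothelial markers (74.8 to 90.2 CPM in tumors, 505 to 937 CPM in benign tissue) and all 5 basal epithelial markers (9.18 to 60.8 CPM, 232 to 494 CPM) were lower, as were 4 of 5 macrophage markers (202 to 334 CPM, 350 to 923 CPM). No listed marker of these types was at 0 in all tumors or all benign samples. Fold changes of the 44 genes are therefore given against all 6 benign samples and again against benign samples 1, 2 and 5 alone. The part that RNA of any of these cell types has in the differences between tumors and benign tissue was not tested.

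Against all 6 benign samples, 30 of the 44 assembly factors (68.2%) were lower in tumors and 1 (2.27%) was higher by edgeR's quasi-likelihood test at an adjusted p-value below 0.1. Of all genes tested, 34.8% were lower and 28.2% higher. The median log2 fold change of the assembly factors was -0.53, against -0.062 for all genes tested, and 41 of the 44 values were negative. Single genes ranged from -1.65 for Foxred1 to 1.06 for Acad9. In 11 genes every tumor was below every benign sample, which was so for 21.2% of all genes, and in 1 gene, Acad9, every tumor was above, which was so for 14.7% of all genes. The 11 genes, 25.0% of the list, were Foxred1, Ecsit, Ndufaf4, Sdhaf1, Taco1, Cox18, Cox10, Coa5, Cmc1, Atpaf1 and Lrpprc.

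Against benign samples 1, 2 and 5 alone, 10 assembly factors (22.7%) were lower in tumors and 3 (6.82%) were higher, while 28.5% of all genes were lower and 26.6% higher. The median log2 fold change was -0.23, against 0.00046 for all genes, and 34 values were negative. The share of assembly factors called lower was above that of all genes with 6 benign samples and below it with these 3. With these 3 the count depended on the setting, being 9 to 15 under other tests, scalings, filters and thresholds. It was 6 with the replicate block and 6 to 14 when 1 sample was left out. The share of all genes called under those settings is not given here. All 10 genes called lower here had also been lower against 6 benign samples. They were Foxred1, Ecsit, Ndufaf4, Sdhaf1, Uqcc3, Taco1, Cox18, Cox10, Coa5 and Cmc1. Acad9 was higher in both comparisons, and Ndufaf1 and Cox20 were higher with benign samples 1, 2 and 5 only. Every tumor was below these 3 samples in 12 assembly factors, 27.3% of the list and close to the 25.0% of all genes. Every tumor was above them in 2 (4.55%, against 18.9% of all genes). The 2 comparisons share the 6 tumors and 3 of the benign samples, and the second also has fewer samples.

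**Figure D1:**
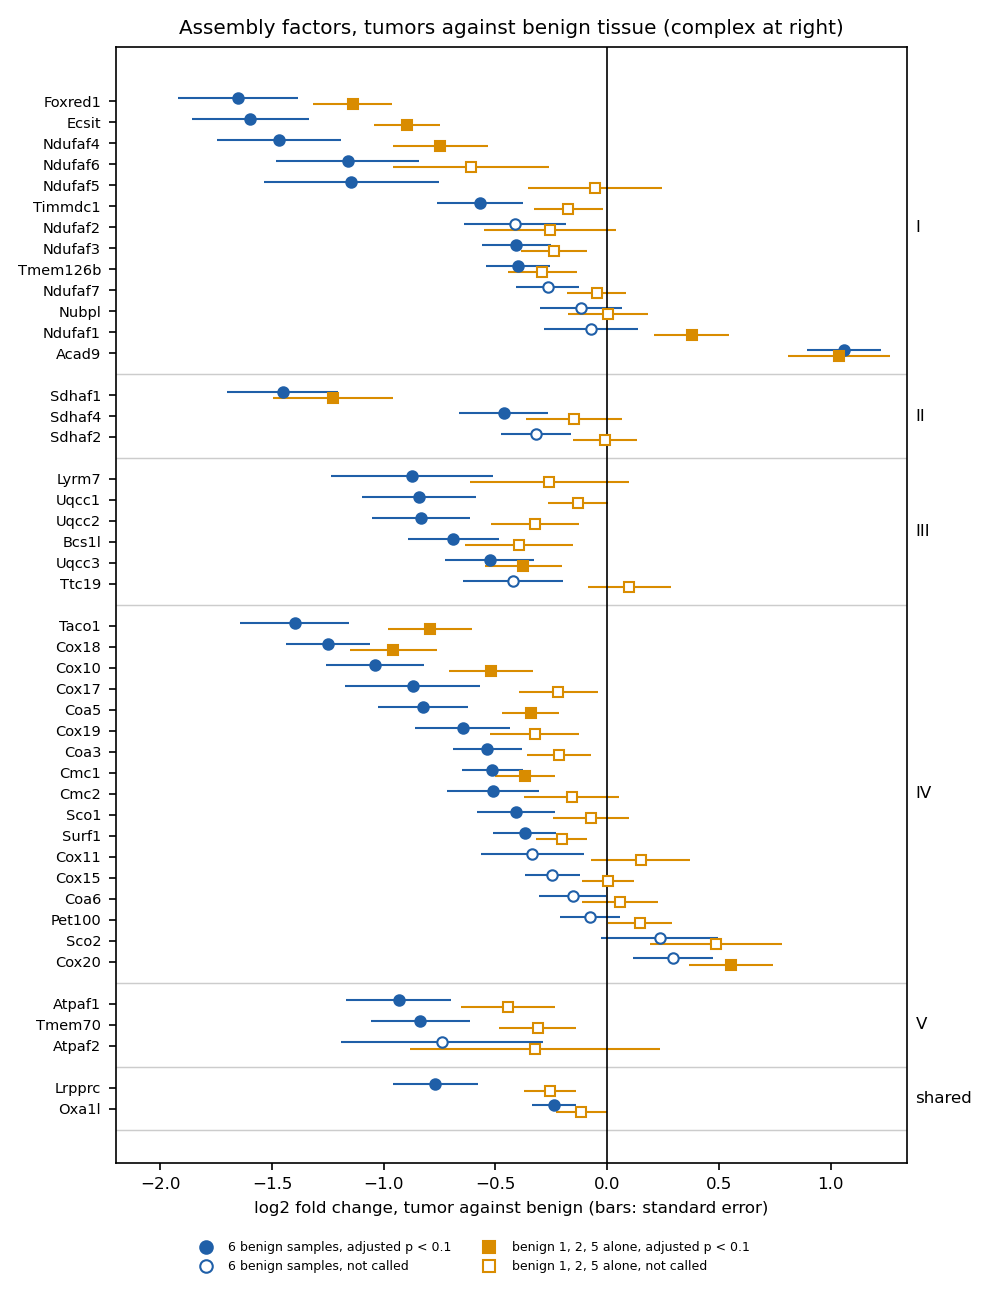
Log2 fold change of each of the 44 assembly factors in tumors, ordered within the complex it serves, against 6 benign samples (circles) and against benign samples 1, 2 and 5 alone (squares). Bars are standard errors and filled symbols passed an adjusted p-value of 0.1. Most squares lie closer to 0 than their circles, while Foxred1, Sdhaf1 and Cox18 stay near or below -1 and Acad9 stays near 1.

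The expression of many nuclear genes for respiratory proteins is driven by NRF1 and by the ETS factor GABP, also called NRF2, and their motifs were looked for in the 300 bases from 250 before to 50 after each gene's start in the RefSeq table of GRCm38.p6. The motifs searched, on both strands, were GCGCANGCG for NRF1 and CCGGAAG for ETS factors. Of the 44 genes, 38 matched a promoter. The NRF1 motif was in 9 of them (23.7%) and in 14.8% of the 10480 tested genes that had a window, and the ETS motif was in 13 (34.2%) against 19.4%. Either motif was in 21 (55.3%) against 30.8%. Among 70 subunit genes with a window, 30.0% held the NRF1 motif and 24.3% the ETS motif. Ecsit and Sdhaf1, lower in tumors in both comparisons, hold the ETS motif only across or past the gene's start and are not printed. The 6 sequences printed here are from genes whose calls the results turn on, 4 others that were lower in tumors in both comparisons and the 2 that were higher with benign samples 1, 2 and 5 only. Each is written 5′ to 3′ on the strand of the gene and ends before the start of the gene, with the motif in capitals.
Ndufaf4 (NRF1, chr4:24897950-24897998, plus strand): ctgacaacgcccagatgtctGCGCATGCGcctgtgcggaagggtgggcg
Coa5 (NRF1, chr1:37430104-37430149, minus strand): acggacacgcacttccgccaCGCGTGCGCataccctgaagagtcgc
Cmc1 (NRF1, chr9:118150200-118150248, minus strand): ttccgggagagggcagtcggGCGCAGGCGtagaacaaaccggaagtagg
Cox10 (ETS, chr11:64079473-64079519, minus strand): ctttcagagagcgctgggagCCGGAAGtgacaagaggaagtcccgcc
Ndufaf1 (ETS, chr2:119662835-119662872, minus strand): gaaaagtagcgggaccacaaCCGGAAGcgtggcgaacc
Cox20 (ETS, chr1:178319030-178319076, plus strand): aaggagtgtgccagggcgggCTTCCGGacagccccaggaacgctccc
Cmc1 was the only one of the 38 with both motifs, the ETS motif lying 7 bases before the start of the gene and the NRF1 motif 23 bases before it. In Ndufaf4 matches to the NRF1 motif lie on both strands and overlap each other, and in Coa5 and Cox20 the motif lies on the opposite strand. Genes with and without a motif were both mostly lower (34.8% of all genes, which were not split by motif). Of the 21 with either motif, 15 were lower in tumors, with a median log2 fold change of -0.51, and of the 17 without, 11 were lower, with a median of -0.54. With benign samples 1, 2 and 5 alone the medians were -0.16 and -0.26. These are descriptions of letters in a window, not of binding.

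Complex I is the largest of the complexes, and it is built from modules, among them a Q module and parts of the membrane arm, that are joined stepwise. Of its 13 assembly factors, 8 were lower in tumors and 1 was higher (34.8% and 28.2% of all genes), with a median log2 fold change of -0.41. Against benign samples 1, 2 and 5 alone 3 were lower and 2 higher (28.5% and 26.6% of all genes), with a median of -0.24. The genes of the assembly complex called MCIA, which builds part of the membrane arm, went different ways.

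Acad9, a flavoprotein of the acyl-CoA dehydrogenase family that serves MCIA, had 94.4 CPM in the lowest benign sample, a median of 124.8 CPM and 137 CPM in the highest. The tumors had 174 CPM at the lowest, a median of 253 CPM and 337 CPM at the highest. No tumor overlapped the benign samples, and the samples with muscle transcripts were not apart from the others. By edgeR the log2 fold change was 1.06 ± 0.17 (SE, adjusted p = 0.000136, n = 6 and 6), and it was 1.04 ± 0.23 with benign samples 1, 2 and 5 (adjusted p = 0.00418). Acad9 lies at chr3:36065979-36092853 on the plus strand of GRCm38.

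Ecsit, an adaptor protein of MCIA that also has a role in Toll-like receptor signaling, had 31.4, 49.4 and 88.5 CPM (lowest, median, highest) in benign tissue and 14.8, 18.97 and 22.3 CPM in tumors. Every tumor was below every benign sample, and the highest 3 benign values were those of samples 3, 4 and 6. In tumors the log2 fold change was -1.60 ± 0.26 (edgeR adjusted p = 0.000187) and -0.90 ± 0.15 against the other 3 benign samples (adjusted p = 0.000771). The gene lies at chr9:22072246-22085438 on the minus strand. Tmem126b, a membrane protein of the same complex, had 24.7, 30.7 and 38.1 CPM in benign tissue and 20.5, 23.3 and 31.2 CPM in tumors. The groups overlapped, and its log2 fold change of -0.40 ± 0.14 (edgeR adjusted p = 0.0299) became -0.29 ± 0.15 with benign samples 1, 2 and 5, which did not pass the test.

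Ndufaf1, the founding member of MCIA, had 11.0, 16.5 and 28.9 CPM in benign tissue and a narrow 16.8, 17.9 and 20.2 CPM in tumors. Benign samples 4 and 6 were above all tumors and the other benign samples were below all of them. The log2 fold change was -0.07 ± 0.21 with 6 benign samples (edgeR adjusted p = 0.792) and 0.38 ± 0.17 with benign samples 1, 2 and 5 (adjusted p = 0.0874), where all tumors were higher. That second call was lost when benign sample 1 or 5 or any single tumor was left out, with values of 0.22 to 0.40 in those fits. Timmdc1, a membrane protein that works with MCIA, had 21.1, 25.4 and 44.4 CPM in benign tissue and 15.7, 19.4 and 22.4 CPM in tumors, a log2 fold change of -0.57 ± 0.19 (edgeR adjusted p = 0.0222). Against benign samples 1, 2 and 5, at 21.1 to 24.3 CPM, the log2 fold change was -0.17 ± 0.15 and did not pass.

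Among the factors of the Q module, Ndufaf4 had 22.6, 41.5 and 59.9 CPM in benign tissue and 11.4, 13.5 and 20.1 CPM in tumors. No tumor reached the lowest benign sample. By edgeR the log2 fold change was -1.47 ± 0.28 (adjusted p = 0.000602) and -0.75 ± 0.21 with benign samples 1, 2 and 5 (adjusted p = 0.0151). The NRF1 motif of its promoter is among the sequences above. Ndufaf3, the partner of Ndufaf4, had 15.2, 18.4 and 25.1 CPM in benign tissue and 12.6, 15.8 and 16.5 CPM in tumors, with log2 fold changes of -0.41 ± 0.15 (edgeR adjusted p = 0.0391) and -0.24 ± 0.15, the second not past the test although every tumor was below benign samples 1, 2 and 5. Exons of Ndufaf3 overlap those of Impdh2 on the other strand.

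Foxred1, a flavin-dependent oxidoreductase needed in a later step of Complex I assembly, had the lowest log2 fold change of the 44 genes against 6 benign samples. It had 31.1, 38.3 and 92.3 CPM in benign tissue and 11.7, 14.8 and 20.2 CPM in tumors, and the groups did not overlap. Benign sample 4 was the highest, while benign sample 3, with muscle transcripts, lay among samples 1, 2 and 5. In tumors the log2 fold change was -1.65 ± 0.27 (edgeR adjusted p = 0.000175) and -1.14 ± 0.18 with benign samples 1, 2 and 5 (adjusted p = 0.000496). Foxred1 lies at chr9:35204206-35211055 on the minus strand.

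The modifying enzymes of Complex I differed from each other. Ndufaf5, which hydroxylates an arginine of a Q module subunit, had 24.3 to 33.5 CPM in benign samples 3, 4 and 6, 7.16 to 10.7 CPM in benign samples 1, 2 and 5, and 4.33, 8.63 and 11.5 CPM in tumors. Of the tumors 3 lay within the range of benign samples 1, 2 and 5, 2 below it and 1 above it. No other of the 44 genes had as large a gap between the 2 sets of benign samples, 1.63 on the log2 scale by mean. Ndufaf5's log2 fold change went from -1.14 ± 0.39 (edgeR adjusted p = 0.0242) to -0.05 ± 0.30 (adjusted p = 0.899). Ndufaf7, an arginine methyltransferase, had 23.7, 26.2 and 39.2 CPM in benign tissue and 19.9, 23.8 and 26.2 CPM in tumors and passed in neither comparison, with log2 fold changes of -0.27 ± 0.14 and -0.05 ± 0.13. Leaving out benign sample 1 brought the first to -0.31 (edgeR adjusted p = 0.0812).

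Of the remaining Complex I factors, Ndufaf6, which acts early, had 5.19, 8.99 and 15.6 CPM in benign tissue and 2.05, 4.16 and 6.37 CPM in tumors, a log2 fold change of -1.16 ± 0.32 (edgeR adjusted p = 0.00765) that was -0.61 ± 0.35 and not called with benign samples 1, 2 and 5. Nubpl, which carries iron-sulfur clusters to Complex I, had 8.71, 11.7 and 17.6 CPM in benign tissue and 9.65, 11.0 and 13.0 CPM in tumors, and its log2 fold changes of -0.12 ± 0.18 and 0.0043 ± 0.18 did not pass. Ndufaf2, a chaperone of a late step, had 7.97, 14.4 and 16.7 CPM in benign tissue and 7.29, 9.44 and 14.6 CPM in tumors. Ndufaf2's log2 fold change of -0.41 ± 0.23 was not called but passed at -0.53 without benign sample 1 (edgeR adjusted p = 0.0439) and at -0.54 without tumor 5 (adjusted p = 0.0547), and it was -0.26 ± 0.30 with benign samples 1, 2 and 5.

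Complex II, succinate dehydrogenase, has no subunit made in the mitochondrion, and its factors mature the flavin and iron-sulfur subunits. Sdhaf1, which protects the iron-sulfur subunit as it matures, had 19.5, 22.8 and 39.4 CPM in benign tissue and 4.95, 9.39 and 12.1 CPM in tumors. The groups did not overlap, and apart from benign sample 4 the benign samples lay within 19.5 to 23.5 CPM whether or not they held muscle transcripts. The log2 fold change was -1.45 ± 0.25 (edgeR adjusted p = 0.000256) and -1.23 ± 0.27 with benign samples 1, 2 and 5 (adjusted p = 0.00407), the lowest of the 44 genes in that comparison. Sdhaf1 lies at chr7:30321406-30323895 on the minus strand and shares exon sequence with a gene on the other strand.

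The flavin side of Complex II moved less. Sdhaf4, which binds the flavin subunit, had 10.4, 14.4 and 20.8 CPM in benign tissue and 7.98, 10.4 and 13.9 CPM in tumors. The fitted log2 fold change of -0.46 ± 0.20 (edgeR adjusted p = 0.0649) was lost when any one of benign samples 4 and 6 and tumors 2, 3, 4 and 6 was left out, with values of -0.46 to -0.34 and adjusted p-values of 0.101 to 0.154. It was -0.15 ± 0.22 with benign samples 1, 2 and 5. Sdhaf2, which inserts the flavin, had 38.6, 54.3 and 72.1 CPM in benign tissue and 35.6, 42.9 and 52.4 CPM in tumors. Sdhaf2's log2 fold change of -0.32 ± 0.16 (edgeR adjusted p = 0.101) missed the threshold and passed when benign sample 2, benign sample 5 or tumor 5 was left out, with values of -0.38 to -0.34. With benign samples 1, 2 and 5 it was -0.0095 ± 0.14.

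Of 6 Complex III factors 5 were called lower with 6 benign samples (34.8% of all genes), with a median log2 fold change of -0.76. The one that was not called, Ttc19, also had a negative value. Against benign samples 1, 2 and 5 alone 1 was called lower (28.5% of all genes), with a median of -0.29. Uqcc1 and Uqcc2 act together in the synthesis and early handling of cytochrome b, the subunit made in the mitochondrion. Uqcc1 had 68.9 to 108 CPM in benign samples 3, 4 and 6, 36.4 to 46.1 CPM in benign samples 1, 2 and 5 and 32.2, 35.8 and 44.4 CPM in tumors. The tumors overlapped benign samples 1, 2 and 5 and lay below samples 3, 4 and 6. Uqcc1's log2 fold change was -0.84 ± 0.26 (edgeR adjusted p = 0.0132) and -0.13 ± 0.13 (adjusted p = 0.465). Uqcc2 had 26.1, 46.6 and 58.1 CPM in benign tissue and 20.1, 23.4 and 34.1 CPM in tumors, with log2 fold changes of -0.83 ± 0.22 (edgeR adjusted p = 0.00598) and -0.32 ± 0.20. Its 3 highest benign samples were 3, 4 and 6.

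Uqcc3, which joins cytochrome b after them, had 21.2, 31.6 and 51.5 CPM in benign tissue and 17.95, 22.8 and 29.8 CPM in tumors. Here the lowest benign sample was number 3, which held muscle transcripts. By edgeR the log2 fold change was -0.53 ± 0.20 (adjusted p = 0.0389), and -0.37 ± 0.17 with benign samples 1, 2 and 5 (adjusted p = 0.0981). The second call was lost when any one of those benign samples or of tumors 1 to 4 was left out, with values of -0.40 to -0.31.

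The Rieske iron-sulfur protein is added to Complex III last. Bcs1l, the ATPase that moves it across the inner membrane, had 16.1, 26.5 and 34.4 CPM in benign tissue and 11.0, 15.5 and 22.1 CPM in tumors, with a log2 fold change of -0.69 ± 0.20 (edgeR adjusted p = 0.0108) that was -0.39 ± 0.24 and not called with benign samples 1, 2 and 5. Lyrm7, the chaperone of the Rieske protein, had 1.62, 3.10 and 7.30 CPM in benign tissue and 1.65, 1.85 and 3.27 CPM in tumors. The fitted log2 fold change of -0.87 ± 0.36 (edgeR adjusted p = 0.0560) was lost without benign sample 4 (-0.60, adjusted p = 0.155), without benign sample 6 (-0.73) and without tumor 2, 3 or 6 (-0.81 in each). With benign samples 1, 2 and 5 Lyrm7's value was -0.26 ± 0.35 and not called. Ttc19, which helps to clear fragments of that protein, had 16.6, 23.5 and 38.3 CPM in benign tissue and 14.8, 18.2 and 24.6 CPM in tumors. Ttc19's log2 fold change was -0.42 ± 0.22 with 6 benign samples, not called, and 0.099 ± 0.19 with benign samples 1, 2 and 5. It passed at -0.51 without benign sample 1, -0.45 without benign sample 2 and -0.51 without tumor 4.

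**Figure D2:**
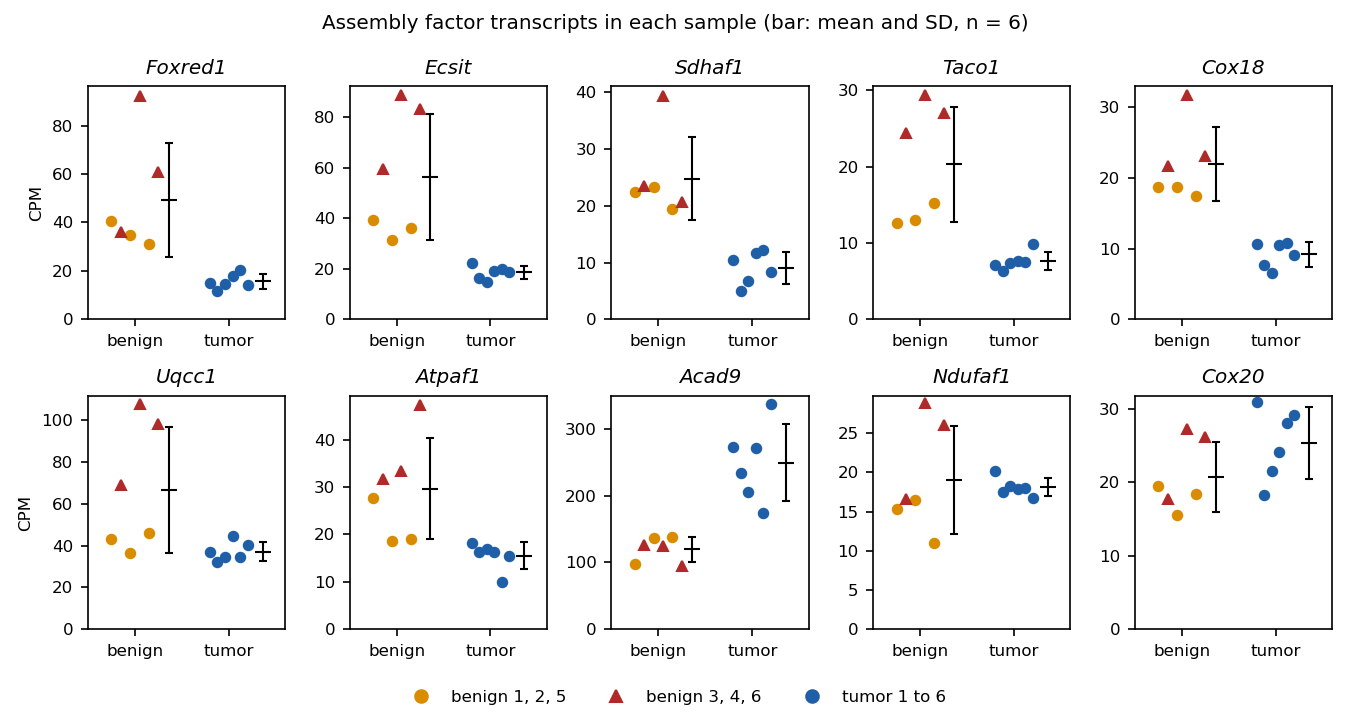
CPM (vertical axes from 0) of 10 assembly factors in each benign sample and tumor, with the mean and SD of the 6 samples of each group beside the points. Triangles are benign samples 3, 4 and 6, which held muscle transcripts. Foxred1, Ecsit, Sdhaf1, Taco1, Cox18 and Atpaf1 had every tumor below every benign sample and Acad9 every tumor above, while the tumors of Uqcc1, Ndufaf1 and Cox20 overlapped the benign samples.

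Complex IV, cytochrome c oxidase, has the longest list of helpers. Of 17 factors 11 were lower in tumors and 0 were higher by edgeR (34.8% and 28.2% of all genes), with a median log2 fold change of -0.51. With benign samples 1, 2 and 5 alone 5 were lower and 1 was higher (28.5% and 26.6% of all genes), with a median of -0.20. At the first step, the making of its mitochondrially encoded core subunit Cox1, Taco1 activates translation. Taco1 had 12.6, 19.8 and 29.4 CPM in benign tissue and 6.33, 7.44 and 9.88 CPM in tumors. The groups did not overlap, and benign samples 3, 4 and 6, at 24.4 to 29.4 CPM, were above benign samples 1, 2 and 5, at 12.6 to 15.2 CPM. In tumors the log2 fold change was -1.40 ± 0.24 (edgeR adjusted p = 0.000299) and -0.79 ± 0.19 (adjusted p = 0.00634). Taco1 lies at chr11:106066061-106073612 on the plus strand.

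Coa3 and Cmc1 hold newly made Cox1. Cmc1 had 19.8, 23.9 and 30.5 CPM in benign tissue and 14.7, 17.2 and 19.6 CPM in tumors, just below the lowest benign sample, which was number 3. Cmc1's log2 fold changes were close to each other, -0.51 ± 0.14 (edgeR adjusted p = 0.00629) and -0.37 ± 0.13 (adjusted p = 0.0463), the second being lost without benign sample 5 (-0.34, adjusted p = 0.125). Coa3 had 38.9, 48.4 and 67.7 CPM in benign tissue and 29.2, 35.7 and 41.8 CPM in tumors, with log2 fold changes of -0.54 ± 0.15 (edgeR adjusted p = 0.00936) and -0.21 ± 0.14, the second not called. Cntd1 overlaps Coa3 on the other strand.

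The heme a of Cox1 is made from heme b by 2 enzymes that differed. Cox10, the farnesyltransferase of the first step, had 21.5, 34.9 and 48.5 CPM in benign tissue and 12.1, 17.2 and 20.1 CPM in tumors. No tumor reached the lowest benign sample. Its log2 fold change was -1.04 ± 0.22 (edgeR adjusted p = 0.00138) and -0.52 ± 0.19 with benign samples 1, 2 and 5 (adjusted p = 0.0439), and that second call was lost without benign sample 5 (-0.43, adjusted p = 0.151). Cox15, the heme a synthase of the second step, had 34.6, 41.9 and 55.6 CPM in benign tissue and 31.4, 37.0 and 42.0 CPM in tumors. Cox15's log2 fold change of -0.24 ± 0.12 was not called, passed at -0.27 without benign sample 1 and at -0.29 without tumor 1, and was 0.0025 ± 0.12 with benign samples 1, 2 and 5. Surf1, which acts at the same stage, had 39.2, 45.2 and 69.7 CPM in benign tissue and 34.2, 37.3 and 44.8 CPM in tumors, with log2 fold changes of -0.37 ± 0.14 (edgeR adjusted p = 0.0376) and -0.20 ± 0.11, the second not called. Surf2 and Surf1 overlap on opposite strands.

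Cox18 and Cox20 both serve Cox2, the other copper-bearing core subunit. Cox18, which moves the tail of Cox2 across the membrane, had 17.5, 20.2 and 31.7 CPM in benign tissue and 6.50, 9.82 and 10.7 CPM in tumors. All tumors were below all benign samples, and the benign samples other than number 4 lay within 17.5 to 23.1 CPM. The log2 fold change was -1.25 ± 0.19 (edgeR adjusted p = 0.0001, the lowest of the 44) and -0.96 ± 0.19 (adjusted p = 0.00271). Cox18 lies at chr5:90214724-90224001 on the minus strand. Cox20, which binds newly made Cox2, had 15.5, 18.9 and 27.3 CPM in benign tissue and 18.3, 26.1 and 31.0 CPM in tumors. Cox20's log2 fold change was 0.29 ± 0.18 with 6 benign samples (edgeR adjusted p = 0.181), but passed at 0.39 without benign sample 4 and at 0.37 without tumor 2. With benign samples 1, 2 and 5 it was 0.55 ± 0.19 (adjusted p = 0.0351), and that call was lost without benign sample 2 (0.49, adjusted p = 0.127). Hnrnpu shares exon sequence with Cox20 on the other strand.

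The copper chaperones of Complex IV fell or did not pass. Cox17, which hands copper to the others, had 43.6, 49.6 and 145 CPM in benign tissue and 30.4, 36.5 and 56.4 CPM in tumors, with 145 and 95.5 CPM in benign samples 4 and 6 and at most 49.7 CPM in the rest. Its log2 fold change was -0.87 ± 0.30 (edgeR adjusted p = 0.0255) and -0.22 ± 0.18, the second not called, and the value is uncertain because the annotation holds another gene, Gm21987, over the same exons. Sco1, which passes copper to Cox2, had 11.5, 14.1 and 20.5 CPM in benign tissue and 9.51, 11.1 and 12.9 CPM in tumors. Sco1's log2 fold change of -0.41 ± 0.17 (edgeR adjusted p = 0.0604) was lost without benign sample 4 or 6 or without tumor 2, 3 or 4, with values of -0.39 to -0.30, and was -0.07 ± 0.17 with benign samples 1, 2 and 5. Sco2, its paralog, had 9.67, 12.05 and 21.0 CPM in benign tissue and 8.80, 14.7 and 25.3 CPM in tumors. Sco2's log2 fold changes of 0.23 ± 0.26 and 0.49 ± 0.30 did not pass, and Sco2 counts are uncertain because Tymp overlaps its exons on the same strand.

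Cox19 and Cmc2, small twin-cysteine proteins, and Cox11, the copper donor of Cox1, had overlapping groups. Cox19 had 35.8, 40.1 and 74.8 CPM in benign tissue and 21.9, 28.2 and 39.2 CPM in tumors, with log2 fold changes of -0.65 ± 0.21 (edgeR adjusted p = 0.0194) and -0.32 ± 0.20, the second not called. Cmc2 had 11.3, 17.9 and 28.0 CPM in benign tissue and 10.6, 12.8 and 16.2 CPM in tumors. The fitted log2 fold change of -0.51 ± 0.21 (edgeR adjusted p = 0.0483) was lost without benign sample 2 (-0.45) and without benign sample 4 (-0.36), and was -0.16 ± 0.21 with benign samples 1, 2 and 5. Cox11 had 8.87, 12.4 and 18.99 CPM in benign tissue and 7.70, 9.40 and 14.2 CPM in tumors, with log2 fold changes of -0.34 ± 0.23 and 0.15 ± 0.22 that did not pass. Coa6, which helps to load copper into Cox2, had 11.9, 14.2 and 17.5 CPM in benign tissue and 10.7, 13.3 and 15.1 CPM in tumors, and its log2 fold changes were -0.16 ± 0.15 and 0.058 ± 0.17, neither called.

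Coa5, required at an early step, had 128, 158 and 287 CPM in benign tissue and 77.7, 106 and 113 CPM in tumors. The groups did not overlap. By edgeR the log2 fold change was -0.83 ± 0.20 (adjusted p = 0.00348) and -0.34 ± 0.13 with benign samples 1, 2 and 5 (adjusted p = 0.0494), and the second call was lost without benign sample 2 (-0.35, adjusted p = 0.111) or benign sample 5 (-0.33, adjusted p = 0.120). Pet100, which helps later subunits to join, had 15.4, 19.6 and 25.5 CPM in benign tissue and 17.3, 18.5 and 21.1 CPM in tumors. The tumors lay inside the benign range, and the log2 fold changes of -0.08 ± 0.13 and 0.15 ± 0.14 did not pass.

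Complex V is the ATP synthase, and its 3 factors had a median log2 fold change of -0.84, with 2 of 3 called lower (34.8% of all genes). Atpaf1, the chaperone of the beta subunit of the catalytic head, had 18.6, 29.8 and 47.4 CPM in benign tissue and 9.97, 16.2 and 18.2 CPM in tumors. All tumors were below all benign samples, although the highest tumor nearly reached benign samples 2 and 5. In tumors the log2 fold change was -0.93 ± 0.23 (edgeR adjusted p = 0.00419) and -0.44 ± 0.21 with benign samples 1, 2 and 5 (adjusted p = 0.107). Tmem70, which helps to form the membrane ring, had 31.1, 46.2 and 75.9 CPM in benign tissue and 23.7, 29.8 and 34.3 CPM in tumors, with log2 fold changes of -0.84 ± 0.22 (edgeR adjusted p = 0.00598) and -0.31 ± 0.17, the second not called. Atpaf2, the chaperone of the alpha subunit, had 0.371 CPM in benign sample 1, below the 3 counts named above, and 3.30 to 7.66 CPM in the other benign samples. Tumors had 2.02, 2.76 and 3.62 CPM. The log2 fold change of -0.74 ± 0.45 was not called, but without benign sample 1 it was -0.98 (edgeR adjusted p = 0.00596). None of the 3 was called with benign samples 1, 2 and 5 alone, where their median was -0.32. Of all genes, 28.5% were lower and 26.6% higher there.

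The 2 genes that serve several complexes were both called lower with 6 benign samples (34.8% of all genes) and neither with 3 (28.5% of all genes). Lrpprc, which stabilises the messenger RNAs made in the mitochondrion, had 54.1, 75.1 and 109 CPM in benign tissue and 37.5, 46.5 and 51.2 CPM in tumors. All tumors were below all benign samples, and benign samples 3, 4 and 6, at 91.0 to 109 CPM, were above the other benign samples, at 54.1 to 59.2 CPM. The log2 fold change was -0.77 ± 0.19 (edgeR adjusted p = 0.00377) and -0.26 ± 0.12 with benign samples 1, 2 and 5 (adjusted p = 0.101). Oxa1l, the insertase through which subunits enter the inner membrane, had 95.0, 101 and 125.2 CPM in benign tissue and 77.7, 89.5 and 101 CPM in tumors. Oxa1l's log2 fold change of -0.24 ± 0.10 (edgeR adjusted p = 0.0573) was the smallest that was called, and the call was lost without benign sample 2 or 4 or tumor 2 or 5, with values of -0.21 to -0.18. Its value against benign samples 1, 2 and 5 was -0.12 ± 0.11.

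The assembly factors were spread more widely among benign samples than among tumors. The SD of log2 CPM had a median of 0.41 in the 6 benign samples, 0.17 in benign samples 1, 2 and 5, and 0.25 in tumors, and was larger in benign tissue for 39 of 44 genes, against 56.7% of all genes tested. All genes tested had median SDs of 0.33 and 0.29 in benign tissue and tumors. Benign sample 4 was the highest benign sample in 37 of the 44 and benign sample 6 in 6, and Acad9 was the exception, being highest in benign sample 5. By mean, 43 of 44 were higher in benign samples 3, 4 and 6 than in 1, 2 and 5, with a median difference of 0.53 on the log2 scale, against -0.034 for all genes. The difference was 1.63 for Ndufaf5, 1.14 for Atpaf2 and for Ndufaf4 and 1.11 for Uqcc1, but 0.12 for Tmem126b and 0.13 for Uqcc3. For Atpaf2 it includes benign sample 1, at 0.371 CPM or 2 counts. Benign samples 2 and 5 had 5.25 and 4.74 CPM of Atpaf2, within the 3.30 to 7.66 CPM of benign samples 3, 4 and 6. Among tumors, tumor 2 had the lowest level in 19 genes and tumor 1 the highest in 16.

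The subunits of the same complexes, 84 genes whose products remain in the finished chain, were compared with their assembly factors. Of the subunits, 74 (88.1%) were lower in tumors against 6 benign samples and 0 were higher by edgeR, with a median log2 fold change of -1.03. Of all genes, 34.8% were lower and 28.2% higher. Against benign samples 1, 2 and 5 alone 38 (45.2%) were lower and 3 higher (28.5% and 26.6% of all genes), with a median of -0.30. The median over the assembly factors was thus closer to 0 than that over the subunits in both comparisons, -0.53 against -1.03 and -0.23 against -0.30, and the difference was not tested. Subunits were also further apart between benign samples 3, 4 and 6 and benign samples 1, 2 and 5, with a median difference of 1.09 on the log2 scale.

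By complex, the median log2 fold changes of subunits against 6 benign samples were -1.13 for Complex I, -1.37 for Complex II, -1.03 for Complex III, -1.05 for Complex IV and -0.63 for Complex V. Complex V was the only one of the 5 in which the assembly factors had the lower median, over 3 genes. With benign samples 1, 2 and 5 alone the subunit medians were -0.40, -0.54, -0.27, -0.44 and -0.030, and the assembly factors of Complexes III and V had the lower medians. All 4 Complex II subunits were lower in both comparisons (34.8% and 28.5% of all genes), while of its 3 assembly factors Sdhaf1 alone was. With 6 benign samples all 9 Complex III subunits and 34 of 36 Complex I subunits were also lower. Against benign samples 1, 2 and 5 alone 3 and 20 of them were.

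**Figure D3:**
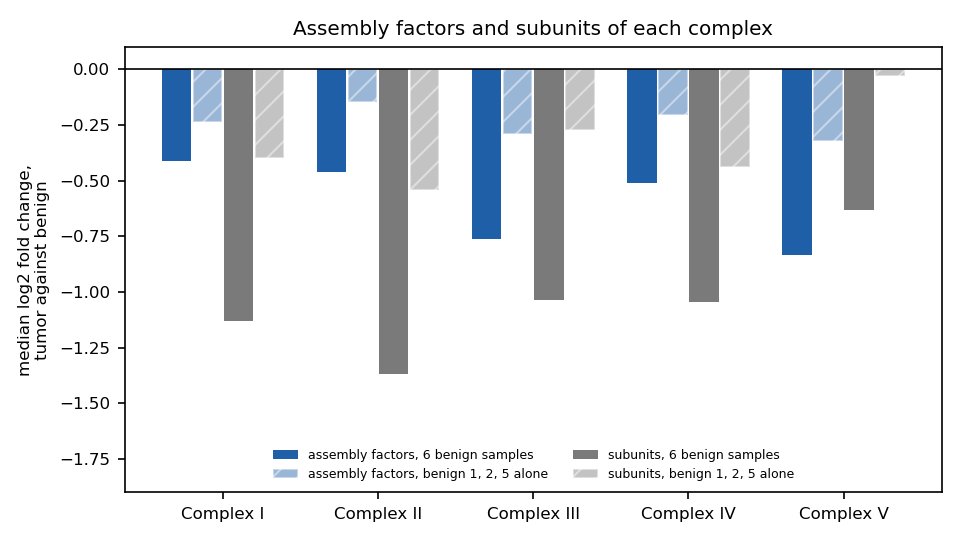
Median log2 fold change in tumors of the assembly factors (blue) and the subunits (grey) of each complex, against 6 benign samples (solid) and against benign samples 1, 2 and 5 alone (hatched). Subunit medians run from -1.37 to -0.63 in the first comparison and from -0.54 to -0.030 in the second, and those of the assembly factors from -0.84 to -0.41 and from -0.32 to -0.15.

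The mean log2 CPM of the 44 assembly factors was 4.42 to 4.55 in benign samples 1, 2 and 5, 4.79 to 5.32 in benign samples 3, 4 and 6 and 4.02 to 4.36 in tumors. The 6 tumors were below all 6 benign samples, tumor 1 lying just below benign sample 1. The subunit mean was subtracted from it in each sample to see whether both sets shift together, and since CPM is not scaled for gene length only the change between samples can be read. Assembly factors minus subunits gave -2.70 to -2.27 in benign samples 3, 4 and 6, -2.12 to -1.98 in benign samples 1, 2 and 5 and -2.03 to -1.79 in tumors. The samples with muscle transcripts were the lowest. Tumor 1, at -2.03, lay within the range of benign samples 1, 2 and 5, and the other 5 tumors were above all benign samples. No test was made of these means.

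**Figure D4:**
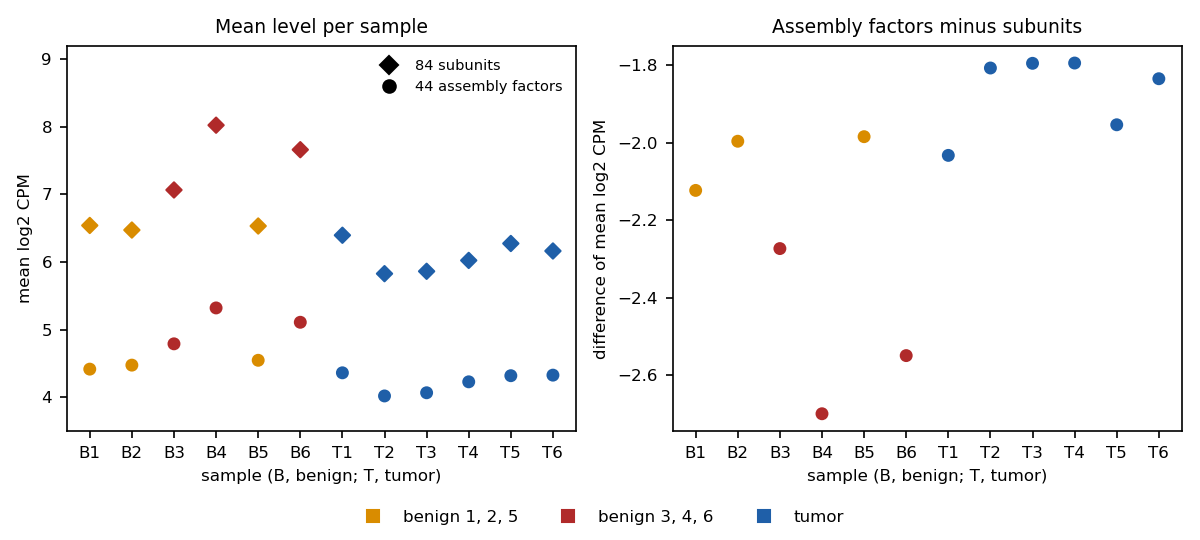
Left, mean log2 CPM of the 84 subunits (diamonds) and the 44 assembly factors (circles) in each sample. Right, the difference of the 2 means, which is lowest in benign samples 3, 4 and 6 (-2.70 to -2.27) and between -2.12 and -1.79 in all other samples.

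Where the genes lie bears on how their counts can be read. In the GENCODE M21 annotation of GRCm38, 15 of the 44 (34.1%) had a protein-coding gene on the other strand starting within 1000 bases of their own start, against 15.5% of 12909 tested genes. Their median log2 fold change was -0.41 with 8 of 15 called lower, and that of the other 29 genes was -0.77 with 22 of 29 called lower (34.8% of all genes). Against benign samples 1, 2 and 5 alone the medians were -0.07 and -0.31. All genes tested were not split in this way, and the difference between the 2 sets of assembly factors was not tested. The libraries were made with a strand-marking kit, but the strand setting of the quantification is not given in the sources used here. For the 13 genes with exons that overlap those of a gene on the other strand, reads from both may therefore be counted together. They were Ndufaf3, Sdhaf1, Sdhaf2, Ttc19, Surf1, Sco2, Cox11, Cox15, Cox20, Coa3, Coa6, Pet100 and Oxa1l.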

How the data were processed

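RNA was measured in 6 tumors and 6 benign mammary samples, grouped by their labels. Per the labels and the submitters' processing notes, reads of poly A RNA were trimmed with Trim Galore and quantified with Salmon on mm10, and the authors deposited an estimated count per gene as whole numbers without scaling. Versions and the annotation are not given in the sources used here. No column was without a sample, and every listed gene had a sum of at least 5. Replicates differed by more than sampling noise (smallest chi-square per degree of freedom 13.1).

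From these counts, genes were kept with filterByExpr (minimum count 10, minimum total 15), scaled by TMM and compared two-sided with glmQLFit and glmQLFTest (edgeR 4.0.16, R 4.3.3), with Benjamini-Hochberg adjustment over 13191 genes and a threshold of 0.1, after the study's methods. Standard errors are the log2 fold change over the square root of F. Log2 CPM used a prior count of 2. The comparison with benign samples 1, 2 and 5 kept the same genes. Single genes were also compared by exact two-sided permutation, whose smallest p is 0.00216 over 924 regroupings and 0.0238 over 84. Genes whose groups do not overlap have that p by construction, so it is not quoted for them. Among genes called by edgeR against 6 benign samples, Ndufaf5 (0.0628) and Lyrm7 (0.0671) had the largest permutation p. Among those called against benign samples 1, 2 and 5, Uqcc3 and Cox20 (0.0714 each) had the largest. The scripts were tested on simulated counts.

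The members and lists were chosen with earlier results of these data known, and so was the choice of benign samples 1, 2 and 5, which rests on muscle transcripts. The rule for named genes took the largest rise and fall in each complex, genes whose groups do not overlap, and genes whose call or direction differs between the comparisons. The few members outside it were added after their values were seen, so that all 44 are given. Alternatives were DESeq2 1.42.0, its size factors, upper-quartile scaling, total counts, other filters, a threshold of 0.05, a replicate block and leaving out each sample. Protein sequences were not used here. A gene of the iron-sulfur cluster list is not reported here.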

Additional observations from a re-analysis of the deposited data

Results flagged for a closer look

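In 9 of 88 groups of 6 samples, 1 sample stood apart from the nearest of the others by more than Dixon's 95% critical value. Chance gives that in about 1 of 20 groups of independent, normally distributed values. The benign samples differ in makeup and the 88 groups reuse the same samples, so the 9 cannot be set against that rate. Benign sample 4 was the high one in 5 of them, with 39.4 CPM for Sdhaf1 (next 23.5 CPM), 69.7 CPM for Surf1 (next 49.7), 21.0 CPM for Sco2 (next 13.9), 74.8 CPM for Cox19 (next 50.1) and 125.2 CPM for Oxa1l (next 102). It also held the highest brown fat marker sum of all samples, 3154 CPM, and its part in these values was not tested.

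Tumor 5 was the sample apart in the other 4. It was high for Uqcc2, at 34.1 CPM (next 25.1), and for Surf1, at 44.8 CPM (next 37.6). It was low for Coa5, at 77.7 CPM (next 102), and for Atpaf1, at 9.97 CPM (next 15.5).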

How the results depend on the processing

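With benign samples 1, 2 and 5 alone, 10 assembly factors were lower and 3 higher (3, 1, 1, 5 and 0 lower for Complexes I to V), the median log2 fold change was -0.23, and the sign turned for Ndufaf1 (0.38), Nubpl (0.0043), Ttc19 (0.099), Cox11 (0.15), Cox15 (0.0025), Coa6 (0.058) and Pet100 (0.15). Total counts gave 25 lower and 2 higher, 1 lower in Complex II, and positive values for Ndufaf1 (0.055) and Pet100 (0.030). The median over all genes was 0.030 with total counts and -0.062 with TMM, and that of the assembly factors -0.42 and -0.53. Keeping genes with at least 1 count in total gave 24 lower and 2 higher, 1 lower in Complex II, and 0.013 and 0.0073 for the same genes. Cox20 was the second higher gene in both. An adjusted p below 0.05 gave 1 lower in Complex II and 26 in all. DESeq2 gave 30 lower and 1 higher, the same 31 calls, and of all 13191 genes tested it called 4408 lower and 4041 higher. DESeq2 size factors, upper-quartile scaling and at least 10 counts in every sample (43 genes tested) gave 29 to 32 lower and 1 higher. Shares of all genes called are not given for the other scalings, filters and threshold. Nor are they for the replicate block or when 1 sample was left out. The cause of these shifts was not tested.

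Leaving out 1 sample gave 25 (without benign 4) to 35 (without benign 1) lower and 1 to 2 higher, a median of -0.61 to -0.43, and 8 to 10, 1 to 3, 4 to 6, 9 to 12 and 2 to 3 lower for Complexes I to V. Without benign sample 4, which set the lowest count in Complex II, Ndufaf1 (0.084), Nubpl (0.018) and Pet100 (0.0017) turned positive, as did Ndufaf1 without benign sample 6 (0.038). Ndufaf1 ranged from -0.19 to 0.084, Nubpl from -0.20 to 0.018 and Pet100 from -0.14 to 0.0017.

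Tumors and benign samples share replicate numbers but not mice, and same-numbered samples did not deviate together (correlations -0.12 to 0.10), so the numbers do not pair them. The replicate block gave 26 lower, with 1 in Complex II. For benign samples 1, 2 and 5 the alternatives were chosen after seeing the data. DESeq2 gave 12 lower, total counts 13, upper-quartile scaling and at least 10 counts in every sample 15 each, at least 1 count in total and an adjusted p below 0.05 9 each, with 2 to 3 higher. The replicate block gave 6 lower and 1 higher, and leaving out 1 sample gave 6 (without benign 5) to 14 (without tumor 5) lower, 2 to 3 higher and a median of -0.27 to -0.17.

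Atpaf2 had 2 counts in benign sample 1, and the reason was not tested. The 3 to 6 benign samples of unlike makeup limit every fold change.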

Other observations

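Beyond the 44 genes, 20 further genes of respiratory chain assembly and mitochondrial RNA handling could be tested. Against 6 benign samples 11 were lower in tumors and 0 higher by edgeR (34.8% and 28.2% of all genes). The median log2 fold change was -0.42. With benign samples 1, 2 and 5 alone 3 were lower and 3 higher (28.5% and 26.6% of all genes), with a median of -0.14. The share of these genes called lower was above that of all genes in the first comparison and below it in the second. Coa7, a Complex IV factor, fell by 1.16 and 0.82 on the log2 scale in the 2 comparisons, and Higd1a, a hypoxia-induced protein of Complex IV, fell by 1.17 and 0.58. Coq10a, which binds coenzyme Q, was at -2.10 and -0.51, called in both. Cox14, which acts with Coa3 on newly made Cox1, was at 0.020 and then 0.38, and was called higher in the second comparison, as were Tmem242 (0.43) and Fastkd2 (0.40).

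Of 17 genes of mitochondrial iron-sulfur cluster assembly, which supplies Complexes I to III, 13 were lower and 0 higher against 6 benign samples by edgeR (34.8% and 28.2% of all genes), with a median of -0.68. With benign samples 1, 2 and 5 alone the median was -0.32, and the counts of calls are not reported here. Bola3, which passes clusters to target enzymes, was at -1.77 and -0.93, Glrx5, a monothiol glutaredoxin that carries them, at -1.07 and -0.75, and Iscu, the scaffold on which they form, at -1.13 and -0.67, all called in both.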
